A study of Homo sapiens with 10 samples.

Results

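Wnt signalling limits itself by switching on genes that damp it, and the genes described here are 10 such feedback regulators and well-known targets: NKD1, NKD2, NOTUM, ZNRF3, RNF43, LGR4, SP5, TNFRSF19, CCND1 and PPARD. They were chosen by name, as Wnt-induced genes other than AXIN2 and LEF1. All 10 symbols were found among the 58735 lines of the count table, and 8 of the 10 were high enough to be tested, as were 13934 lines in all. RNA had been sequenced from a human endothelial cell line of the brain, labelled HCMECs, in 10 libraries. The 5 siCtrl libraries came from cells given a control small interfering RNA, and the 5 siUSP9X libraries from cells given an siRNA against USP9X, an enzyme that takes ubiquitin off other proteins. Cells of both groups were transfected for 48 h and then given Wnt3a for 12 h. Cells without the ligand were not analysed here. All comparisons therefore set siUSP9X against siCtrl in the presence of Wnt3a, and how strongly Wnt3a itself moved these genes was not measured. The labels name no separate cultures behind the 5 libraries of a group, and p-values then measure the spread between libraries, which may be technical.

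In the Wnt/beta-catenin pathway, a Wnt ligand bridges a Frizzled receptor and LRP5 or LRP6, beta-catenin escapes degradation, and it joins TCF/LEF factors on DNA to switch on target genes. Several of those targets act back on the pathway at different depths. NOTUM, an enzyme secreted from the cell, strips the lipid that a Wnt ligand needs. ZNRF3 and RNF43, ubiquitin ligases of the cell membrane, clear Frizzled receptors from the surface, and R-spondins bound to LGR4 and its relatives stop them. NKD1 and NKD2 bind Dishevelled inside the cell, and SP5 is a nuclear factor that acts on other Wnt target genes. In brain vessels this pathway is known for driving vessel growth and the blood-brain barrier.

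TCF/LEF factors recognise short words in DNA, and the promoter of SP5 is printed because it held such words where the other members with an entry held none. That of LGR4 is printed beside it because LGR4 had the smallest p of the members. Promoters were matched by symbol to RefSeq (GRCh38.p14), where 6 of the 10 genes had an entry. Each stretch below is the 250 bases before the annotated start, in the direction of transcription. SP5 lies at chr2:170715087-170715336 on the plus strand and LGR4 at chr11:27472791-27473040 on the minus strand. Capitals mark matches, on either strand, to any of 4 TCF/LEF words of 7 bases, which are CTTTGAA and then CTTTGAT, besides these CTTTGTA and lastly CTTTGTT.
SP5: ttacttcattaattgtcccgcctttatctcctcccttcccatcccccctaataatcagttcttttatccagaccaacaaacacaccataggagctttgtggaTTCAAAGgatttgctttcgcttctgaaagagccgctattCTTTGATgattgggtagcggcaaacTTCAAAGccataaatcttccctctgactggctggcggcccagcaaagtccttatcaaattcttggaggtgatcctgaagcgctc
LGR4: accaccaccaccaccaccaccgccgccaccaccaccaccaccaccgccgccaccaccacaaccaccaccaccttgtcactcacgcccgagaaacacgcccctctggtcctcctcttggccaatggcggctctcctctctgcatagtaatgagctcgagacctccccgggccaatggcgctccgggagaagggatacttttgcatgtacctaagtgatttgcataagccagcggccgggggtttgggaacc
SP5 held 3 matches, which begin 148, 109 and 84 bases before the start. LGR4, NKD2, PPARD and both promoters each of RNF43 and TNFRSF19 held 0 in a window of this length. Over all 35114 promoters of that length, 12.0% held at least 1 match and 0.122% held at least 3. A match describes letters only, and its absence from this window says nothing of sites elsewhere.

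USP9X mRNA itself checked the labels. It ran from 283 to 415 CPM in siCtrl (CPM is counts per 1e+06 counts of the library, scaled by its TMM factor) and from 20.7 to 68.7 CPM in siUSP9X, and its log2 fold change was -3.28 ± 0.32 (SE, edgeR adjusted p = 0.000403). Library totals ran from 15958362 to 26467787 counts. The library siUSP9X replicate 2 stood apart: its median correlation with its own group over log2 values of tested genes was 0.943, against 0.989 to 0.993 for the other 9 libraries, and cytosolic ribosomal protein genes held 1.96% of its counts against 4.10 to 5.84%. It also held the most USP9X mRNA of its group, 68.7 CPM beside 20.7 to 36.5 CPM in the other 4. Without that library the USP9X log2 fold change was -3.67 ± 0.16 (SE). Log2 fold changes of the members are therefore given with and without siUSP9X replicate 2. The endothelial label was only partly borne by the markers: of 12 endothelial markers 3 were tested (CDH5, ESAM and ENG), and FLT1, ERG and EMCN had 0 counts in every library. PECAM1, VWF, KDR, TEK, TIE1 and CLDN5 had means from 0.0104 to 0.208 CPM in siCtrl. Of the 3 tested, CDH5 was also low, with a mean of 0.544 CPM in siCtrl. ESAM and ENG, at 161 and 84.0 CPM, made up nearly all of the summed level given below. The keratins KRT8 and KRT18 were abundant, and both fell in siUSP9X (log2 fold changes -0.45 ± 0.12 and -0.74 ± 0.10, SE, edgeR adjusted p = 0.0400 and 0.00216), KRT8 in 3 and KRT18 in 10 of the 10 fits without 1 library (-0.38 and -0.67 without siUSP9X replicate 2). The rest of the 8 epithelial markers were low or absent. EPCAM, the third tested, had a mean of 0.886 CPM in siCtrl and did not pass (-1.37 ± 0.39, SE, edgeR adjusted p = 0.0561). Without siUSP9X replicate 2 EPCAM was called lower (-1.26, edgeR adjusted p = 0.0340). CDH1, CLDN7 and KRT19 had means of 0.223, 0.116 and 0.0466 CPM in siCtrl, and KRT5 and KRT14 had 0 counts in both groups. Among the 3 endothelial markers 0 passed with edgeR and 1 did at an unadjusted p under 0.05, while 1 was called lower by DESeq2 and 1 by limma-voom. Summed endothelial markers ran from 218 to 265 CPM in siCtrl and 107 to 235 CPM in siUSP9X. Summed epithelial markers ran from 3313 to 4173 CPM in siCtrl and 2029 to 2755 CPM in siUSP9X. Both siUSP9X low ends, 107 and 2029 CPM, were replicate 2. With that library dropped, ESAM moved from -0.18 to 0.0040 on the log2 scale. ENG moved from -0.51 to -0.39 and was called lower there (edgeR adjusted p = 0.00192), where 23.4% of all tested genes were called. All siUSP9X libraries of ENG, replicate 2 included, lay below its siCtrl libraries. CDH5 moved from 0.68 to 0.66 and was not called. Mural and fibroblast, neural and leukocyte markers had 4, 1 and 1 tested members and 0 calls with edgeR at the adjusted threshold, with 1, 0 and 0 at an unadjusted p under 0.05 and 0 with DESeq2 or limma-voom. The part of these marker shifts in the results below was not tested.

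With all 10 libraries, none of the 8 tested feedback and target genes passed the threshold of an adjusted p of 0.05 (edgeR quasi-likelihood test, Benjamini-Hochberg over all tested genes), against 7.31% of all tested genes. At an unadjusted p under 0.05 there was 1, LGR4, where the share of all tested genes was 27.8%. DESeq2 called 1 member higher, again LGR4, and 8.10% of its tested genes higher, while limma-voom called 0 members. The median log2 fold change of the 8 was 0.016, and that of all tested genes 0.026. Without siUSP9X replicate 2, LGR4 was called higher and the other 7 did not pass. That setting called 23.4% of all tested genes in either direction and 11.9% higher, so 1 of 8 lay close to the share of all genes. In bulk RNA, fewer cells that express a gene and less of its RNA per cell cannot be told apart.

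**Figure D1:**
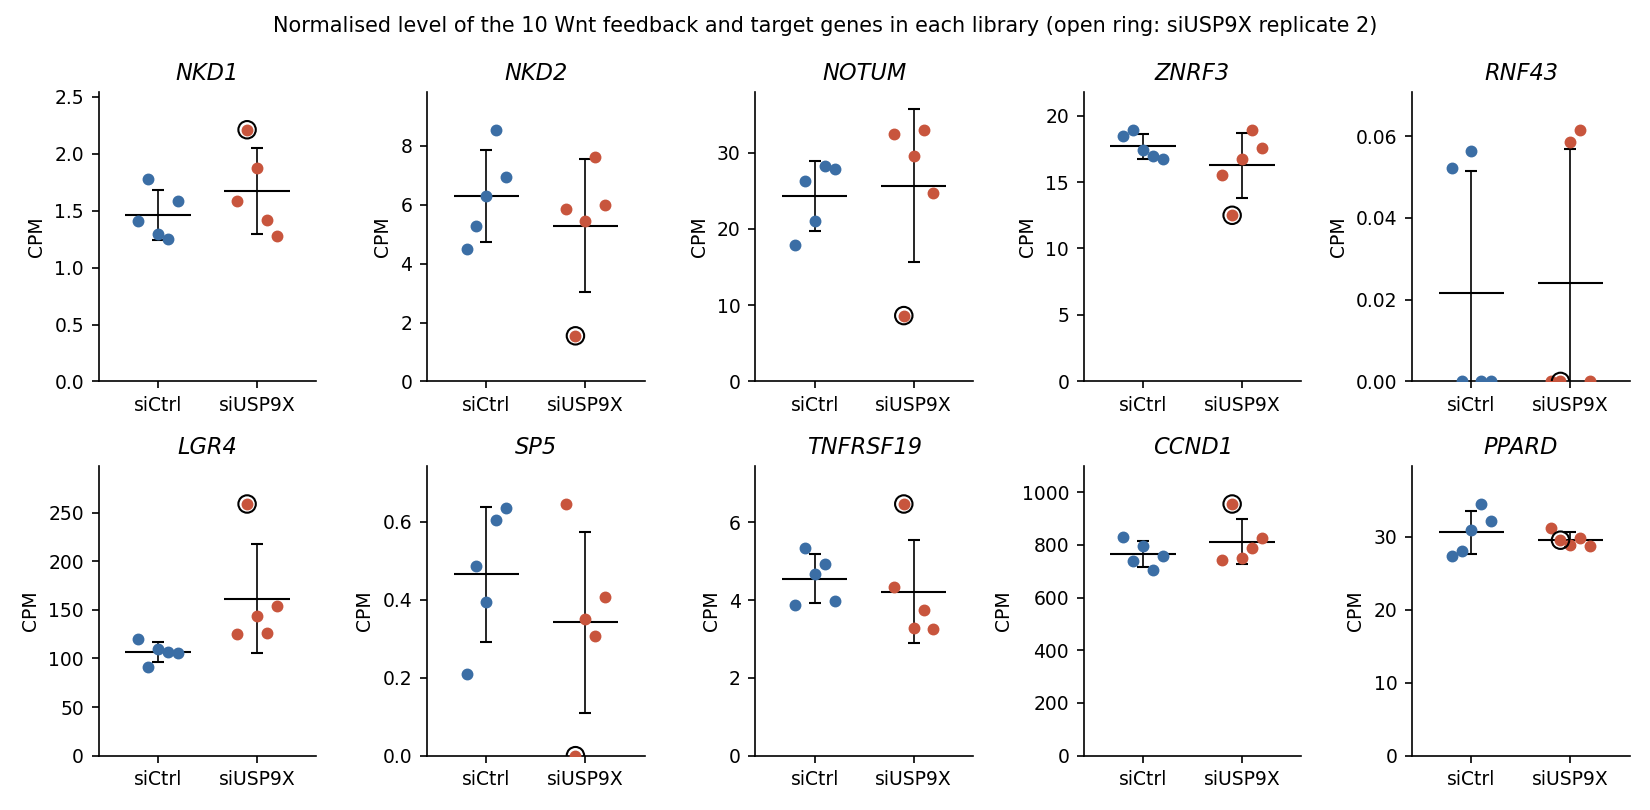
CPM of each of the 10 genes in every library, with 5 siCtrl and 5 siUSP9X libraries per panel and a linear axis from 0. Bars show the mean and SD, and the ring marks siUSP9X replicate 2, which was the highest of its group for NKD1, LGR4, TNFRSF19 and CCND1 and the lowest for NKD2, NOTUM, ZNRF3 and SP5. LGR4 alone had all siUSP9X libraries above all siCtrl libraries.

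LGR4, the receptor for R-spondins that protects Frizzled receptors (ENSG00000205213.13, chromosome 11, 27365961 to 27472775, minus strand, GRCh38), was the member that differed most. It stood at 119.7, 91.7, 110.0, 107 and 106 CPM in siCtrl replicates 1 to 5. In siUSP9X replicates 1 to 5 it stood at 125, 259, 143, 126 and 154 CPM. The lowest siUSP9X library thus lay just above the highest siCtrl library, and replicate 2 lay far above the other 4. Groups separated in this way, with siUSP9X above, for 7.79% of all tested genes. Group means were 107 ± 10.1 and 162 ± 55.7 CPM (SD, n = 5 each). On the log2 scale the difference was 0.60 ± 0.19 (SE, edgeR adjusted p = 0.0799), with a 95% interval from 0.18 to 1.02. DESeq2 gave 0.58 ± 0.20 (SE, adjusted p = 0.0334). Without siUSP9X replicate 2 the mean of the other 4 was 137 ± 14.0 CPM (SD, n = 4), or 1.29-fold the siCtrl level, and the log2 fold change was 0.36 ± 0.09 (SE, edgeR adjusted p = 0.00625). The value thus shrank and its error shrank more, and the edgeR, DESeq2 or limma-voom adjusted p over all alternatives, added ones apart, ran from 0.00625 to 0.252.

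The relatives and ligands that act with LGR4 were nearly silent. LGR5, LGR6 and the 4 R-spondins had at most 2 counts over the 5 libraries of either group, and 0 of these 6 genes were tested. Their summed level ran from 0 to 0.112 CPM in siCtrl and from 0 to 0.234 CPM in siUSP9X, so LGR4 was the member of its family with more than a few counts in these cells. By likeness of log2 levels over the 10 libraries, the genes closest to LGR4 among 10558 tested genes of at least 5 CPM were SH3RF1, ATP13A3, XPR1, HIPK1 and ANKRD27, with Pearson correlations from 0.990 to 0.994, and from 0.970 to 0.978 over 9 libraries without siUSP9X replicate 2. These 5 had log2 fold changes from 0.40 to 0.89 and none passed the threshold with all libraries. All of these points share their libraries, so the correlations are descriptions.

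ZNRF3 and RNF43, the ligases that LGR4 opposes, were far apart in level. ZNRF3 (ENSG00000183579.15, chromosome 22, 28883592 to 29057487, plus strand) stood at 18.4, 18.9, 17.4, 17.0 and 16.7 CPM in siCtrl replicates 1 to 5 and at 15.6, 12.5, 16.7, 18.9 and 17.6 CPM in siUSP9X. The groups overlapped, with the lowest value in siUSP9X replicate 2. Its log2 fold change was -0.12 ± 0.12 (SE, edgeR adjusted p = 0.509, 95% interval -0.39 to 0.14) and -0.041 without that library, where the interval ran from -0.24 to 0.16. RNF43 (ENSG00000108375.12, chromosome 17, 58352500 to 58417595, minus strand) had 2 counts in each group over 5 libraries, in siCtrl replicates 1 and 3 and siUSP9X replicates 3 and 4, so siUSP9X replicate 2 added none. That is 0.0198 CPM in siCtrl (exact 95% Poisson interval 0.00240 to 0.0717) and 0.0233 CPM in siUSP9X (0.00283 to 0.0843). Intervals of this kind cover counting error only. A difference in RNF43 was not detectable at this depth, and ZNRF3 was the expressed ligase of the pair.

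Of the 12 Frizzled and LRP receptors that these ligases and their partners act on, 11 were tested: 1 rose, 2 fell and the other 8 missed the threshold. FZD6 rose from 99.1 ± 7.74 to 149.5 ± 37.8 CPM, FZD1 fell from 11.5 ± 0.725 to 7.73 ± 1.06 CPM and FZD4, a receptor known for its part in brain vessel growth, fell from 9.60 ± 0.175 to 7.20 ± 0.488 CPM (SD, n = 5 each). Their log2 fold changes were 0.59 ± 0.15, -0.57 ± 0.13 and -0.41 ± 0.10 (SE, edgeR adjusted p = 0.0411, 0.0205 and 0.0338). When each library was dropped in turn, FZD6 passed in 2 of 10 fits (siUSP9X replicate 2 or 4 dropped), FZD1 in 8 (all but siCtrl replicates 3 and 5) and FZD4 in 2 (siUSP9X replicate 2 or 3 dropped). The median log2 fold change of the 11 was 0.16, beside 0.026 for all tested genes. The 3 calls among 11 stand beside 7.31% of all tested genes. The values of FZD6, FZD1 and FZD4 without siUSP9X replicate 2 were 0.43, -0.49 and -0.40, and 3 receptors rose and 2 fell, where 23.4% of all tested genes were called.

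NOTUM, the secreted enzyme that inactivates Wnt ligands (ENSG00000185269.11, chromosome 17, 81952507 to 81961840, minus strand), was well expressed for a feedback gene. Its siCtrl replicates 1 to 5 held 17.9, 26.3, 21.0, 28.2 and 27.9 CPM, and its siUSP9X replicates 1 to 5 held 32.4, 8.63, 29.5, 32.99 and 24.7 CPM. In siUSP9X, 3 libraries thus lay above every siCtrl library, while replicate 2 lay below every one. The log2 fold change was 0.079 ± 0.30 (SE, edgeR adjusted p = 0.873), with an interval from -0.57 to 0.73 that leaves both directions possible, and the sign turned under some alternatives, given with the dependence on processing. Without siUSP9X replicate 2 it was 0.30 ± 0.13 (SE, edgeR adjusted p = 0.102), with group means of 24.3 ± 4.599 CPM (SD, n = 5) and 29.9 ± 3.77 CPM (SD, n = 4).

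Glypicans are proteoglycans that hold Wnt ligands at the cell surface. Of 8 glypican and ligand secretion genes 5 were tested and 1 was called, beside 7.31% of all tested genes. GPC4 fell from 34.6 ± 4.09 to 17.3 ± 1.16 CPM (SD, n = 5 each), which is -1.005 ± 0.11 on the log2 scale (SE, edgeR adjusted p = 0.000561), and it passed in all 10 fits with a library dropped (-1.02 without siUSP9X replicate 2). GPC1, GPC2, PORCN and WLS did not pass. GPC1 went from 72.7 to 56.9 CPM, with a log2 fold change of -0.35 ± 0.22 (SE), and -0.17 without siUSP9X replicate 2. PORCN and WLS, which attach the lipid to Wnt ligands and carry them out of the cell, had log2 fold changes of 0.038 ± 0.18 and 0.048 ± 0.10 (SE), and 0.16 and 0.0078 without that library.

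NKD1 and NKD2, the inhibitors that bind Dishevelled, were both low and differed from each other in how they varied. NKD1 (ENSG00000140807.6, chromosome 16, 50548330 to 50649249, plus strand) stood at 1.41, 1.78, 1.29, 1.25 and 1.59 CPM in siCtrl replicates 1 to 5 and at 1.59, 2.21, 1.87, 1.42 and 1.28 CPM in siUSP9X. NKD2 (ENSG00000145506.13, chromosome 5, 1008829 to 1038943, plus strand) stood at 4.49, 5.29, 6.30, 8.55 and 6.94 CPM in siCtrl and at 5.87, 1.55, 5.44, 7.63 and 5.98 CPM in siUSP9X. Both genes overlapped between groups, and siUSP9X replicate 2 was the highest of all 10 libraries for NKD1 and the lowest for NKD2. Log2 fold changes were 0.20 ± 0.21 for NKD1 and -0.26 ± 0.33 for NKD2 (SE, edgeR adjusted p = 0.547 and 0.613). Without siUSP9X replicate 2 they were 0.078 ± 0.24 and -0.027 ± 0.17 (SE), with 95% intervals from -0.42 to 0.58 and from -0.39 to 0.34. The 3 Dishevelled genes, DVL1, DVL2 and DVL3, had log2 fold changes of -0.21, 0.0084 and 0.21. With edgeR 0 passed, adjusted or at an unadjusted p under 0.05, as with both other tools (DESeq2 0, limma-voom 0), and without siUSP9X replicate 2 DVL3 was called higher (0.27), as were 11.9% of all tested genes, while DVL1 and DVL2 stood at -0.12 and 0.093.

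**Figure D2:**
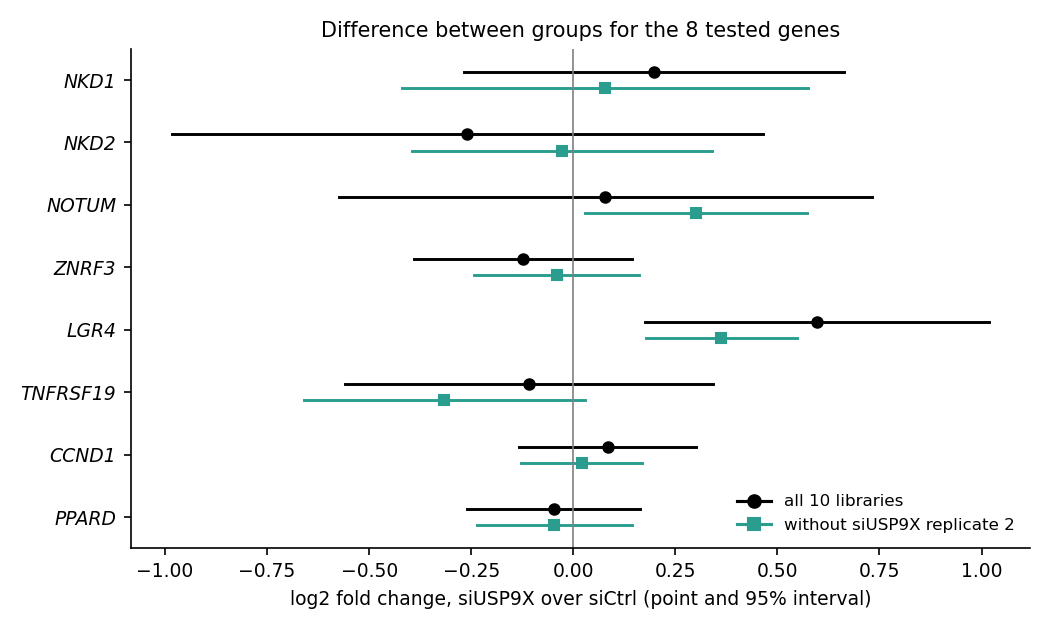
Log2 fold change of siUSP9X over siCtrl with its 95% interval (edgeR) for the 8 tested genes, with all 10 libraries (circles) and without siUSP9X replicate 2 (squares). LGR4 is the gene whose interval lies above 0 in both settings, at 0.60 and 0.36, and the intervals of NKD2 and NOTUM narrow most without that library.

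SP5, a nuclear factor whose promoter is printed above (ENSG00000204335.3, chromosome 2, 170715351 to 170718078, plus strand), was near the floor of detection. In siCtrl replicates 1 to 5 the gene was counted 4, 9, 7, 16 and 12 times, and in siUSP9X replicates 1 to 5 it was counted 11, 0, 6, 5 and 7 times. These sum to 48 and 29 counts, or 0.476 CPM (exact 95% Poisson interval 0.351 to 0.631) and 0.338 CPM (0.227 to 0.486), and the intervals overlap. The library with 0 counts was siUSP9X replicate 2, and without it the pooled siUSP9X level was 0.429 CPM (0.287 to 0.616). With no filter on low genes the log2 fold change was -0.47 ± 0.58 (SE, edgeR adjusted p = 0.633), and -0.14 ± 0.50 without siUSP9X replicate 2.

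TNFRSF19, a receptor of the TNF receptor family and a Wnt target (ENSG00000127863.15, chromosome 13, 23570370 to 23676104, plus strand), was modestly expressed. It held 3.86, 5.34, 4.67, 4.92 and 3.97 CPM in siCtrl replicates 1 to 5 and 4.34, 6.47, 3.28, 3.75 and 3.25 CPM in siUSP9X. Apart from replicate 2, the highest of all 10 libraries, 3 of the other 4 siUSP9X libraries lay below every siCtrl library. The log2 fold change was -0.11 ± 0.21 (SE, edgeR adjusted p = 0.742), and -0.32 ± 0.16 (SE, edgeR adjusted p = 0.176) without that library.

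CCND1, which encodes cyclin D1, the partner of CDK4 and CDK6 at entry into the cell cycle (ENSG00000110092.3, chromosome 11, 69641087 to 69654474, plus strand), was the most abundant member. Levels in siCtrl replicates 1 to 5 were 831, 739, 796, 705 and 759 CPM, and those in siUSP9X replicates 1 to 5 were 741, 955, 751, 787 and 825 CPM. All siUSP9X libraries other than replicate 2 lay within the siCtrl range. The log2 fold change was 0.084 ± 0.099 (SE, edgeR adjusted p = 0.580) with a 95% interval from -0.13 to 0.30, and without siUSP9X replicate 2 it was 0.020 with an interval from -0.13 to 0.17. CCND1 was thus the member whose difference was bounded most tightly without that library. Its end overlaps LTO1 on the other strand, with means of 15.03 CPM (siCtrl) and 11.8 CPM (siUSP9X), and LGR4 overlaps AC100771.2 at 0.301 and 0.457 CPM. Whether reads were counted by strand is not stated in the labels, and if they were not, reads of such partners cannot be told apart.

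The genes closest to CCND1 in pattern were RRP15, SPAST, TAF1A, DCLRE1B and MDFIC (Pearson correlations from 0.967 to 0.973 over the 10 libraries, and from 0.910 to 0.936 without siUSP9X replicate 2), and none of them passed the threshold. Among 7 D cyclin, CDK and pocket protein genes, all tested, 1 rose, beside 7.31% of all tested genes called in either direction: CCND2, the sister cyclin, went from 12.98 ± 3.33 to 27.0 ± 13.2 CPM (SD, n = 5 each), or by 1.06 ± 0.29 on the log2 scale (SE, edgeR adjusted p = 0.0471). Its value was 0.72 without siUSP9X replicate 2, and without any 1 of the other 9 libraries the call was lost (edgeR adjusted p from 0.0537 to 0.1196). Of these 7 genes DESeq2 called 1 higher and limma-voom called 0. CDK4 and CDK6 had log2 fold changes of -0.16 ± 0.14 and 0.11 ± 0.33 (SE), and without siUSP9X replicate 2 CDK4 stood at -0.061 and CDK6 fell by 0.38.

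PPARD, a nuclear receptor activated by fatty acids (ENSG00000112033.13, chromosome 6, 35342558 to 35428191, plus strand), varied least in siUSP9X. Its values were 27.3, 28.1, 31.0, 34.5 and 32.1 CPM in siCtrl replicates 1 to 5 and 31.2, 29.5, 28.8, 29.8 and 28.7 CPM in siUSP9X. Every siUSP9X library, replicate 2 included, lay within the siCtrl range. The log2 fold change was -0.048 ± 0.097 (SE, edgeR adjusted p = 0.759, 95% interval -0.26 to 0.16), and without siUSP9X replicate 2 it was -0.046 ± 0.090 (SE, interval -0.24 to 0.14). Of 13 partners and PPAR target genes 9 were tested and 1 rose, where 7.31% of all tested genes were called. It was the related receptor PPARG (13.1 ± 0.326 to 18.9 ± 4.24 CPM, SD, n = 5 each; log2 fold change 0.53 ± 0.14, SE, edgeR adjusted p = 0.0450), which passed in 2 of 10 fits with a library dropped (siUSP9X replicate 2 or 4, with 0.39 when replicate 2 was dropped). The PPAR targets ANGPTL4, CPT1A, PLIN2, ACADVL and SLC25A20 did not pass with all libraries (0.017, 0.52, 0.35, -0.42 and -0.23). Without siUSP9X replicate 2 there were 4 calls, all higher: PPARA, PPARG, CPT1A and PLIN2. ANGPTL4, ACADVL and SLC25A20 were not called without that library (0.19, -0.23 and -0.013). That setting called 11.9% of all tested genes higher.

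**Figure D3:**
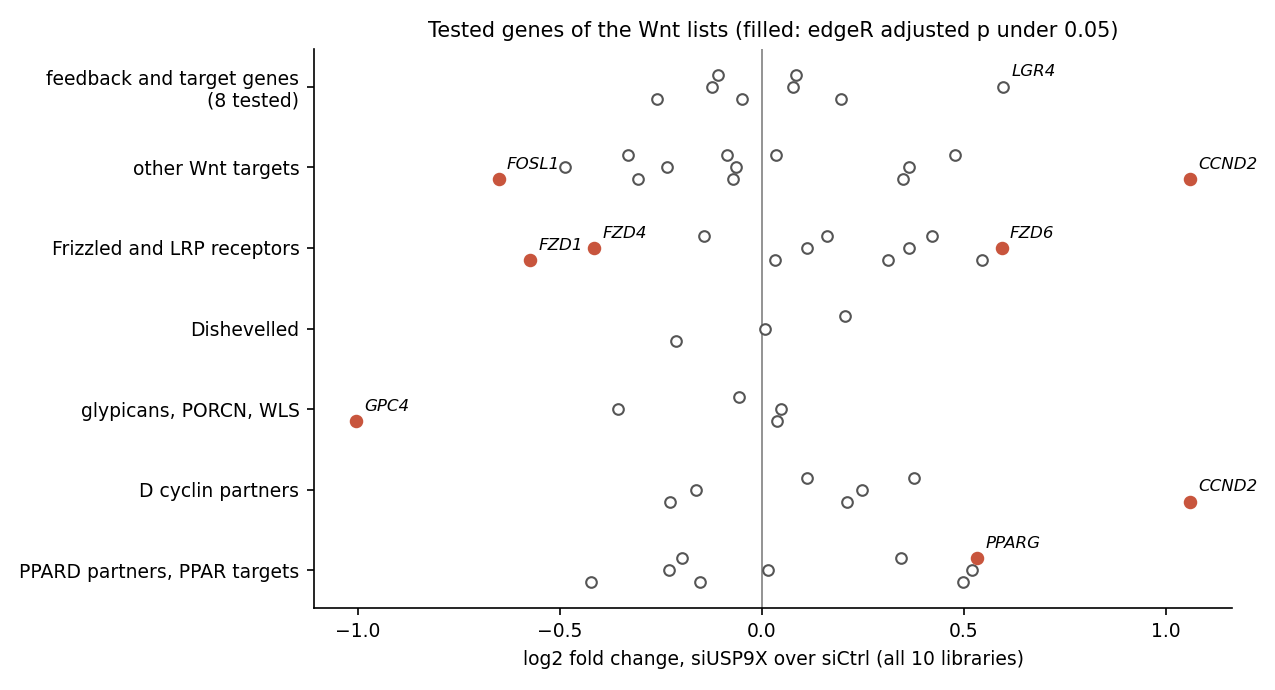
Log2 fold change, with all 10 libraries, of each tested gene in 7 lists. Filled points passed an edgeR adjusted p of 0.05 and are named. LGR4 is named though it did not pass, and CCND2 and FZD7 (not named, as it did not pass) each stand in 2 lists.

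Among 30 other Wnt target genes, 29 were in the table, 13 were tested, 1 rose (CCND2) and 1 fell, beside 7.31% of all tested genes called. The one that fell was FOSL1, an AP-1 subunit, from 144 ± 6.48 to 91.6 ± 20.5 CPM (SD, n = 5 each; log2 fold change -0.65 ± 0.15, SE, edgeR adjusted p = 0.0289), and it passed in 3 of 10 fits with a library dropped (siUSP9X replicate 2, 3 or 4, with -0.52 when replicate 2 was dropped). At an unadjusted p under 0.05 there were 7 of the 13, where the share of all tested genes was 27.8%. DESeq2 called 2 of this list higher and 3 lower, where it called 8.10% of all its tested genes higher. With limma-voom 0 were higher and 1 was lower. TCF7, a TCF/LEF factor, did not pass with all libraries (log2 fold change -0.49 ± 0.14, SE, edgeR adjusted p = 0.0586). Without siUSP9X replicate 2 it was called lower (-0.54, edgeR adjusted p = 0.0109). LEF1, another TCF/LEF factor and itself a Wnt target, had a log2 fold change of 0.037 ± 0.16 (SE), and 0.10 without siUSP9X replicate 2. Its sign turned in some fits with a library dropped. AXIN2 was under the filter with 61 counts in siCtrl and 48 in siUSP9X. The median of the 13 was -0.071. DKK1, FZD7 and BIRC5 did not pass with all libraries (log2 fold changes 0.48 ± 0.15, 0.37 ± 0.11 and -0.33 ± 0.10, SE, edgeR adjusted p = 0.0795, 0.0588 and 0.0758). Of 14 tested without siUSP9X replicate 2, 3 rose and 5 fell, in a setting that called 23.4% of all tested genes. Those that rose were CCND2, DKK1 and FZD7 (0.72, 0.55 and 0.37). Those that fell were TCF7, FOSL1, BIRC5, SOX9 and CD44 (-0.54, -0.52, -0.28, -0.26 and -0.25).

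Expressed per kilobase of the longest annotated coding transcript, the members spanned a wide range and kept the same order in both groups. CCND1 led with 178 ± 11.4 CPM per kb in siCtrl (SD, n = 5), followed by LGR4 at 20.5 ± 1.94, NOTUM at 10.4 ± 1.97, PPARD at 8.11 ± 0.781, NKD2 at 2.93 ± 0.725, ZNRF3 at 2.58 ± 0.138 and TNFRSF19 at 1.06 ± 0.147 CPM per kb. SP5 came next at 0.229 ± 0.0851 CPM per kb, then NKD1 at 0.0856 ± 0.0129, whose annotated transcript of 17105 bases lowers its value, and RNF43 was last. Neighbours whose libraries overlapped in level, in each group, were NOTUM and PPARD, NKD2 and ZNRF3, and SP5 and NKD1. All other neighbours were separated in both groups.

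The spread of siUSP9X replicate 2 across the members followed the base composition of their transcripts. Against the mean of the other 4 siUSP9X libraries, LGR4 and TNFRSF19, with 42.1% and 43.2% GC, were 1.89-fold and 1.69-fold higher in replicate 2. CCND1 and NKD1, with 50.3% and 51.6% GC, were 1.23-fold and 1.34-fold higher. ZNRF3 at 53.5% and PPARD at 59.0% GC stood at 0.736 and 0.997 times the others. NOTUM at 66.5% and NKD2 at 67.5% GC stood at 0.302 and 0.307 times. Without the offset, NOTUM stood at 8.63 CPM against a mean of 29.9 CPM, and NKD2 at 1.55 against 6.23 CPM. Over 11948 tested genes with a coding transcript, the 2987 with the lowest GC had a median log2 deviation of 0.76 in that library and the 2987 with the highest GC -0.79 (Spearman's rho -0.71 across genes, which are not independent replicates). The siUSP9X values of these members thus moved with GC content in 1 library.

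**Figure D4:**
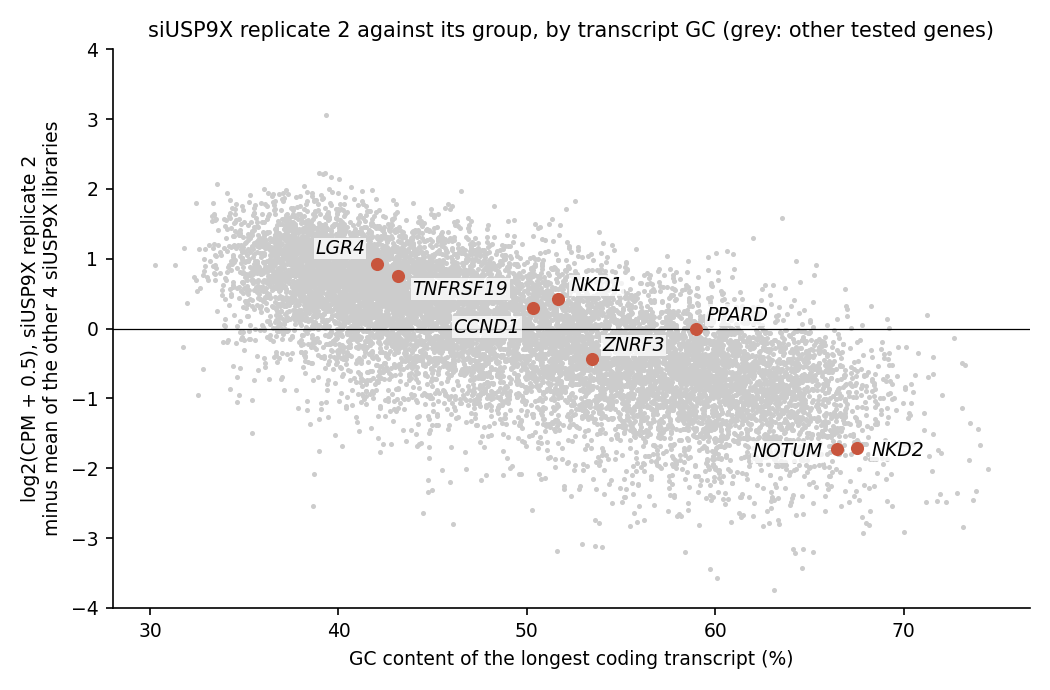
Log2(CPM + 0.5) of siUSP9X replicate 2 minus the mean of the other 4 siUSP9X libraries, against the GC percentage of the longest coding transcript, for the 8 tested members (named) and 11948 tested genes (grey). LGR4 and TNFRSF19 lie high at low GC, and NOTUM and NKD2 lie low at high GC.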

How the data were processed

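The deposited table holds whole-number counts per gene symbol, not normalized by the authors, with 1 column per library, and 0 columns of other samples. Per the submitters' processing notes hg38, RSEM and DESeq2 were used, with no role or version. The aligner, annotation, strand setting and any rounding are not given in the sources used here. Per the labels' protocols the mRNA libraries were stranded.

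Counts were tested with edgeR 4.0.16 (R 4.3.3; glmQLFit with robust estimation, glmQLFTest, TMM factors, filterByExpr with a minimum count of 10, group as the only term), two-sided, with Benjamini-Hochberg adjustment over all tested genes. Intervals at 95% use the fit's own degrees of freedom. Genes under the filter carry pooled counts with exact Poisson intervals. On simulated counts of 13934 genes 13 of 67 genes set to a 1.5-fold difference passed, as did 44 of 67 at 2-fold, 66 of 66 at 4-fold and 5 of 13734 with none. The simulated libraries held no shift shared across genes like that of siUSP9X replicate 2, so these rates need not carry over to the real counts. No library pair of a group was alike within sampling noise (lowest chi-square per degree of freedom 5.26).

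Members and 12 lists (other Wnt targets, receptors, R-spondins and LGR relatives, Dishevelled, glypican, D cyclin and PPAR genes, and 5 marker lists) were chosen with earlier results of these data known. Named were all members, USP9X, AXIN2, LEF1, up to 4 called genes per list, and the 5 genes most like the member with the smallest p and the most abundant member. Other list genes with values were named after these were seen. Positions, transcripts and GC come from GENCODE 29 (GRCh38). Alternatives were other scalings, no filter, DESeq2 1.42.0, limma-voom (limma 3.58.1), the replicate block and each library left out, and 2 combinations were added after the data were seen.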

Additional observations from a re-analysis of the deposited data

Results flagged for a closer look

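LGR4 in siUSP9X replicate 2 stood at 259 CPM, and its gap to the next library was 0.783 of the range of the 5 siUSP9X libraries, above the limit of 0.710 for groups of 5. It was the only such library among 26 groups examined (13 genes in 2 groups), where chance flags about 1 in 20. The other 4 siUSP9X libraries ran from 125 to 154 CPM, all above the siCtrl libraries.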

How the results depend on the processing

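LGR4 kept its positive direction in all alternatives, and passed the threshold with DESeq2, without siUSP9X replicate 2, and in both added combinations: 1 member called higher in each, against 0 in the other settings. Leaving out 1 library gave 0 to 1 members higher and 0 lower, and a log2 fold change of USP9X from -3.67 to -3.14. Over all genes DESeq2 called 1134 higher and 988 lower, and leaving out 1 library gave 170 to 1674 higher and 189 to 1620 lower. Without siUSP9X replicate 2 and with no filter 1588 were higher and 1648 lower. The cause of these shifts was not tested.

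Deviations of same-numbered libraries had correlations from -0.49 to 0.28. These cannot settle whether replicate numbers pair the libraries, because siUSP9X replicate 2, which stood apart, is among the libraries compared. The replicate block gave 34 higher and 57 lower genes and 0 members, with LGR4 at 0.54 (adjusted p = 0.252). The replicate block with both number 2 libraries left out gave 1582 higher and 1855 lower genes, LGR4 at 0.29 (adjusted p = 0.0147) and CCND1 reversed at -0.013.

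NOTUM reversed to -0.049 with limma-voom, -0.014 with the replicate block, and -0.014, -0.020 and -0.029 without siCtrl replicate 1 and siUSP9X replicates 1 and 4, over a range of -0.029 to 0.30 with 1 library left out. Each fit in which NOTUM reversed kept siUSP9X replicate 2. LEF1 reversed to -0.046, -0.016, -0.0022 and -0.026 without siCtrl replicates 3 and 4 and siUSP9X replicates 3 and 5, over a range of -0.046 to 0.11. None of these passed the threshold. Depth limits RNF43, SP5 and AXIN2.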
